A study of Mus musculus with 6 samples.

Results

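The immediate-early transcription factor genes were followed in the corpus of the stomach, where acid is made, of mice given a synthetic glucocorticoid. They are the 10 genes Fos, Fosb, Jun, Junb, Egr1, Ier2, Nr4a1, Atf3, Klf4 and Klf2, taken by symbol from the deposited table, where each had 1 probe set named by its gene ID, out of 19919 genes with a symbol. The rule that picks them uses symbols alone, but the set was put together with earlier results of these data known. No filter on level was applied, so all 10 were tested. All mice were wildtype Balb/c females between 8 and 12 weeks of age. For 3 samples, dexamethasone was given in the drinking water at 50 mg per litre over 3 days and was renewed on day 2. For the other 3 samples, the mice were left without treatment. RNA from the dissected corpus was hybridised to single-colour Affymetrix arrays, and values are log2 expression after RMA (robust multi-array average). Whether a sample held 1 mouse or several, and at what hour or how quickly the stomachs were removed, is not given in the sources used here.

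Immediate-early genes are transcribed within minutes of a signal by factors that are already present in the cell, without new protein synthesis, and their short-lived mRNAs fall again soon after. Mitogens, calcium, stretch, injury and the removal of tissue from the body all switch them on, through serum response factor with its ELK partners, through CREB and through MEF2. FOS and JUN proteins pair to form the dimeric factor AP-1, EGR1 and the KLF proteins bind DNA through zinc fingers, and NR4A1 is an orphan nuclear receptor. The activated glucocorticoid receptor is known to hold back AP-1 at many genes by protein contact, and it induces Dusp1, a phosphatase that switches off the kinases upstream.

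Across the series, array medians lay between 7.96 and 8.00 over the genes with a symbol. Defining markers of the labelled tissue lay well above these medians, with list means of 12.65 to 12.74 in dexamethasone samples and 12.56 to 12.65 in controls for 5 of 5 parietal cell markers, and of 12.01 to 12.33 and 12.04 to 12.40 for 5 of 5 chief cell markers. Leukocyte markers, 6 of 7 measured and 1 of them lower past the threshold, had list means of 7.38 to 7.43 in dexamethasone samples and 7.43 to 7.52 in controls, and exocrine pancreas markers, 5 of 7 measured, 7.35 to 7.43 and 7.33 to 7.40. On the squamous list, dexamethasone replicates 1 and 2 and control replicate 2 stood apart from the other 3 arrays.

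None of the 10 genes passed the threshold of an adjusted p of 0.05 (limma, Benjamini-Hochberg over 19919 genes), with 0 higher and 0 lower. Of all genes, 1.84% passed, 0.798% higher and 1.04% lower. An unadjusted p under 0.05 was reached by 1 of the 10, Fosb, against 13.1% of all genes. The dexamethasone and control arrays did not overlap for 1 of the 10, again Fosb and with dexamethasone above, against 18.3% of all genes, of which 8.84% had dexamethasone above and 9.46% below. The log2 change was positive for 7 genes and negative for 3. Its median was 0.03, with 0.0023 over all genes, and the median of its size was 0.077, against 0.0744 over all genes.

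**Figure D1:**
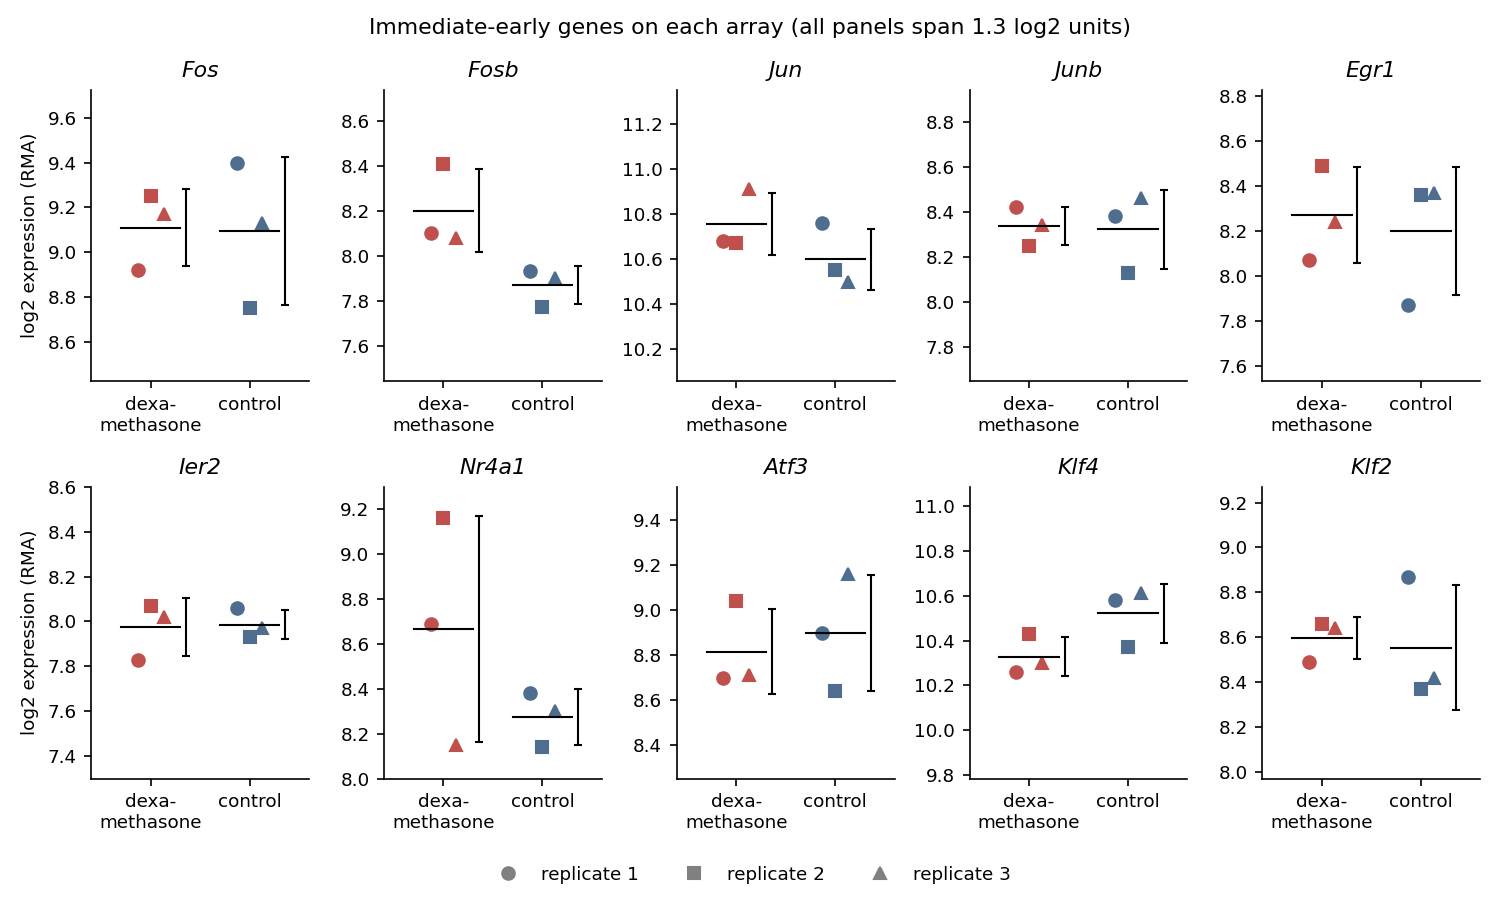
Log2 expression (RMA) of the 10 genes on each array, dexamethasone in red and control in blue, with a marker shape for each replicate number, a horizontal line at the group mean and a bar for the SD (n = 3 per group). Only for Fosb do all 3 dexamethasone points (8.08 to 8.41) lie above all 3 control points (7.77 to 7.93), and Nr4a1 spans 8.15 to 9.16 within the dexamethasone group.

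The promoter windows of 4 genes are shown because these genes make up the range of responses described next: Fosb, with groups that did not overlap, its close relative Fos, with nearly equal group means, Nr4a1, with the widest scatter, and Klf4, with the lowest log2 change. The windows run from 250 bases before to 50 bases after the start site and come from RefSeq on build GRCm38.p6. They lie at chr7:19309996-19310295 on the minus strand for Fosb, chr12:85473640-85473939 on the plus strand for Fos, chr15:101266596-101266895 on the plus strand for Nr4a1 and chr4:55532426-55532725 on the minus strand for Klf4. Capitals mark TGACG, the core of the cAMP response element (CRE) that CREB reads, shown as CGTCA where it lies on the opposite strand.
Fosb: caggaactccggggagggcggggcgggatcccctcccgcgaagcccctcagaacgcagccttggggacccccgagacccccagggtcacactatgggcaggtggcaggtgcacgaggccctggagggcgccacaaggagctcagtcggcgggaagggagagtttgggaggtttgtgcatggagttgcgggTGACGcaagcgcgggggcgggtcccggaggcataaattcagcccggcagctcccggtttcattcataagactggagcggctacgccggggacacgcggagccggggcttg
Fos: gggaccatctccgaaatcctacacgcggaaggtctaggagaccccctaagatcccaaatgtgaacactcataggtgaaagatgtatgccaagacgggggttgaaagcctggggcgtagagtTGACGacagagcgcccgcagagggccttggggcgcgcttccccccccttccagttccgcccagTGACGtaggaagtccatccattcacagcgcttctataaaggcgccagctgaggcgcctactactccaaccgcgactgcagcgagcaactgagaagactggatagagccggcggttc
Nr4a1: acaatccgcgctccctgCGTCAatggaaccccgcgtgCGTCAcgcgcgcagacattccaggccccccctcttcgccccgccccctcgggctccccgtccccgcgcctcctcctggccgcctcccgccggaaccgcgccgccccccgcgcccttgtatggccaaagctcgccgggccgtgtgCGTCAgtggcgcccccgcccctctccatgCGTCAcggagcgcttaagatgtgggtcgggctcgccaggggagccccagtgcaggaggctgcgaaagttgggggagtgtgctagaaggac
Klf4: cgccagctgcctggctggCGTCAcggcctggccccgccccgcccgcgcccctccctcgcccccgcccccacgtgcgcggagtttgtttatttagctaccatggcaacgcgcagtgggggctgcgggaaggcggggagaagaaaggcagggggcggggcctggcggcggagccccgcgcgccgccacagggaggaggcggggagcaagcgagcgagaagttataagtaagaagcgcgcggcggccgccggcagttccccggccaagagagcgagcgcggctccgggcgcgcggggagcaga
This core occurred in 1 place in the Fosb window, at bases -60 to -56 from the start site, and at -129 to -125 and -66 to -62 in the Fos window. Nr4a1 held 4 copies, all on the opposite strand, and Klf4 held 1 at -232 to -228.

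Windows were on hand for 8 of the 10 genes, and Egr1 and Ier2 are named only. The core TGACG was found on either strand in 7 of these 8 windows, against 20.8% of the 32851 windows of all genes. The full CRE, TGACGTCA, which contains the core, was in 0 of the 8 and in 1.79% of all windows. The AP-1 site TGANTCA was in 0 of the 8 and in 7.81% of all. TGACATCA, the AP-1-like element known from the JUN promoter, was in 1, that of Jun, at -45 to -38, and in 3.62% of all windows. The MEF2 box was in 3, those of Jun, Atf3 and Klf2, and in 3.19% of all. The CArG box, bound by serum response factor, was in 0 of the 8 and in 1.63% of all, and the palindromic glucocorticoid response element was in 0 of the 8 and in 0.00913% of all. The AP-1 site, the TGACATCA element, the CArG box and the MEF2 box were likewise searched on both strands. These letter matches describe the windows and do not show that a factor is bound. Sequence farther upstream was not searched, and neither were Egr1 and Ier2. A count of 0 thus does not show that a gene lacks the site.

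Among the FOS proteins, which need a JUN partner to bind DNA, Fosb and Fos gave different values. Fosb, whose protein is more stable in its truncated form and is known for outlasting a stimulus, stood at 8.10, 8.41 and 8.08 in dexamethasone samples, against 7.93, 7.77 and 7.90 in controls. Every dexamethasone array lay above every control array, with a log2 change of 0.33 (SE 0.10, 95% interval 0.10 to 0.56, limma adjusted p = 0.195), which is 1.26-fold. It thus did not pass over all genes. With array weights, estimated from the scatter of these same arrays, the adjusted p was 0.0318 at a log2 change of 0.42. Those weights gave 773 higher and 1003 lower among all 19919 genes, against 159 and 208 without them. Dexamethasone replicate 2, the highest Fosb array, had a weight of 2.453, where weights ran from 0.447 to 2.508. Other settings gave smaller changes. The log2 change was 0.23 with the smooth muscle mean as a covariate (adjusted p = 0.825). Leaving out both arrays numbered 2, a choice made after seeing the data, gave 0.18 (adjusted p = 0.788). Fos, the gene most used as a marker of recent stimulation, stood at 8.92, 9.25 and 9.17 in dexamethasone samples, against 9.40, 8.75 and 9.13 in controls. The highest and the lowest of the 6 values were both controls, so the groups overlapped fully. Its log2 change was 0.01 with an interval from -0.37 to 0.40 (adjusted p = 0.983), which spans 0.776-fold to 1.32-fold. With 3 arrays per group, changes within those bounds are compatible with the data. The interval is unadjusted and is not a limit of detection.

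The JUN genes encode the partners that bind DNA alone or with FOS. Jun had 10.68, 10.67 and 10.91 in dexamethasone samples, against 10.76, 10.55 and 10.50 in controls. Control replicate 1 lay above 2 of the dexamethasone arrays, and the other controls lay below all of them, giving a log2 change of 0.16 (SE 0.097, interval -0.07 to 0.38, adjusted p = 0.570). Junb, which can restrain JUN at growth genes, had 8.42, 8.25 and 8.34 in dexamethasone samples, against 8.38, 8.13 and 8.46 in controls. The dexamethasone values lay inside the range of the controls, with a log2 change of 0.01 (SE 0.097, interval -0.21 to 0.24, adjusted p = 0.973). Atf3, a stress-induced repressor that can pair with JUN proteins, had 8.70, 9.04 and 8.71 in dexamethasone samples, against 8.90, 8.64 and 9.16 in controls. Here too the lowest and the highest values were controls, and the log2 change was -0.08 (SE 0.14, interval -0.42 to 0.25, adjusted p = 0.870).

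Egr1, a zinc finger factor induced by growth signals and wounding, had 8.07, 8.49 and 8.24 in dexamethasone samples, against 7.87, 8.36 and 8.37 in controls. Control replicate 1 was the lowest of the 6 arrays and dexamethasone replicate 2 the highest, and the groups differed by 0.07 on the log2 scale (SE 0.16, interval -0.30 to 0.44, adjusted p = 0.907). Ier2, whose nuclear protein is made early after growth signals, had 7.83, 8.07 and 8.02 in dexamethasone samples, against 8.06, 7.93 and 7.97 in controls. All 3 controls lay within the dexamethasone range. Its log2 change of -0.01 had the narrowest interval of the 10 genes, from -0.20 to 0.18 (adjusted p = 0.979).

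Klf4 drives differentiation in surface epithelia and is known in the stomach as a brake on proliferation. It had 10.26, 10.43 and 10.30 in dexamethasone samples, against 10.58, 10.37 and 10.61 in controls. Control replicate 2 fell below dexamethasone replicate 2, so the groups overlapped through that pair of arrays alone. The log2 change was -0.19 (SE 0.085, interval -0.39 to 0.005, adjusted p = 0.394), and it stayed negative, between -0.27 and -0.15, with each array left out in turn. Leaving out both arrays numbered 2, a choice made after seeing the data, gave -0.32 (adjusted p = 0.4). Surface mucous cells, one of the epithelia where Klf4 is expressed, had list means of 12.46, 12.37 and 12.20 over 4 of 5 markers in dexamethasone samples, against 12.39, 12.52 and 12.60 in controls. Their part in the value of Klf4 was not tested. In RNA from whole tissue, fewer cells of a type and less RNA per cell cannot be told apart.

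Klf2, a factor of endothelium under flow and of resting lymphocytes, had 8.49, 8.66 and 8.64 in dexamethasone samples, against 8.87, 8.37 and 8.42 in controls. Control replicate 1 was the highest and control replicate 2 the lowest of the 6 arrays, with the dexamethasone values between them and a log2 change of 0.05 (SE 0.13, interval -0.27 to 0.36, adjusted p = 0.935). The endothelial markers, 9 of 9 measured, averaged 8.92, 9.03 and 8.95 in dexamethasone samples, against 8.84, 8.97 and 8.89 in controls, and 0 of them passed.

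Nr4a1, also called Nur77, had the largest log2 change of the 10 genes and the least even values. It stood at 8.69, 9.16 and 8.15 in dexamethasone samples, against 8.38, 8.14 and 8.30 in controls. Replicates 1 and 2 of the dexamethasone group lay above all controls, while replicate 3 lay at the level of the lowest control. The log2 change was 0.39 (SE 0.22, interval -0.13 to 0.91, adjusted p = 0.532), and its size turned on single arrays. It was 0.65 without dexamethasone replicate 3 (adjusted p = 0.0752) and 0.15 without dexamethasone replicate 2 (adjusted p = 0.917). Dexamethasone replicates 1 and 2 were also the arrays with most signal from the squamous epithelium that lines the forestomach next to the corpus, and from smooth muscle. Over 15 of 15 squamous markers the list mean was 10.28, 10.31 and 8.63 in dexamethasone samples, against 8.53, 10.05 and 8.66 in controls. Control replicate 2, with its high squamous mean, had the lowest Nr4a1 value of the 6 arrays. The log2 change of Nr4a1 was 0.26 with the squamous mean as a covariate (adjusted p = 0.658) and -0.30 with the smooth muscle mean (SE 0.36, adjusted p = 0.887). The smooth muscle mean was 11.38 to 11.79 in dexamethasone samples and 11.00 to 11.25 in controls, so it can hardly be separated from the treatment. With it as a covariate, 17 of all genes were higher and 21 lower, against 159 and 208 without it.

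The related receptor genes Nr4a2 and Nr4a3, singled out after their values were seen, were set beside Nr4a1. Nr4a2 averaged 9.83 in dexamethasone samples and 9.61 in controls (log2 change 0.23, SE 0.089, adjusted p = 0.329), and its groups did not overlap. Nr4a3 had 7.92, 8.11 and 7.52 in dexamethasone samples, against 7.56, 7.60 and 7.73 in controls (log2 change 0.22, SE 0.14, adjusted p = 0.580). Within the dexamethasone group its 3 arrays stood in the same order as for Nr4a1, with replicate 2 highest and replicate 3 lowest. Nr4a2 had another order there, at 9.75, 9.86 and 9.89, with replicate 3 highest and replicate 1 lowest.

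**Figure D2:**
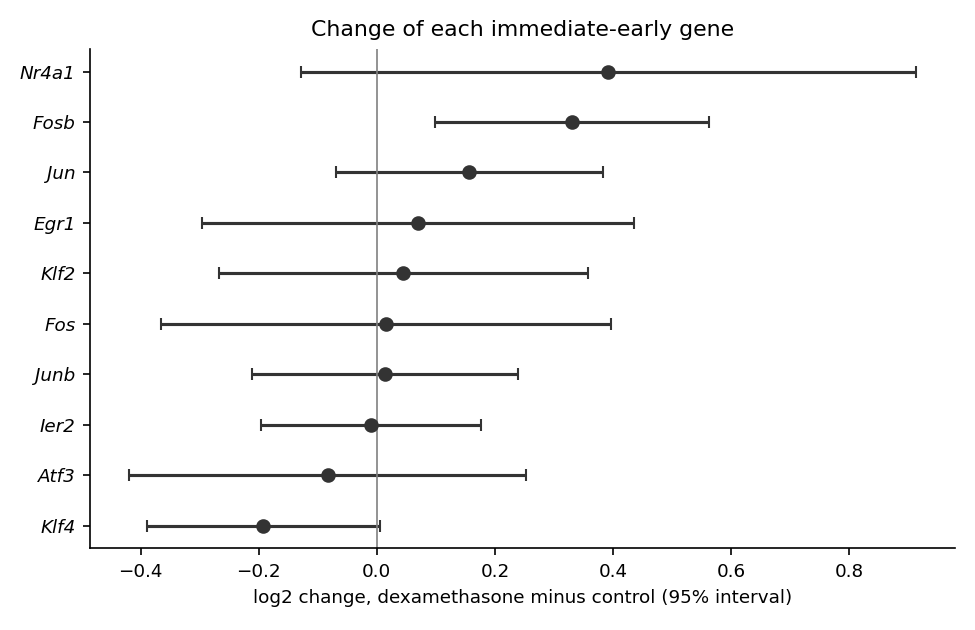
Log2 change of each of the 10 genes, dexamethasone minus control, with the 95% interval from limma (n = 3 per group). The interval of Fosb (0.10 to 0.56) is the only one that lies wholly to 1 side of 0, and that of Nr4a1 (-0.13 to 0.91) is the widest.

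The scatter between arrays of the same group was larger for these genes than for most. The SD within groups, from the 2-group fit with 4 residual degrees of freedom, had a median of 0.176 over the 10 genes and 0.0954 over all genes. All 10 lay above the median of all genes, and 5 lay above the 90th percentile of all genes, which is 0.194. These 5 were Nr4a1 at 0.367 (98.5th percentile), Fos at 0.262 (95.9th), Egr1 at 0.250 (95.4th), Atf3 at 0.227 (93.8th) and Klf2 at 0.208 (92.0th). Fosb (0.143), Jun (0.137), Junb (0.137), Klf4 (0.112) and Ier2 (0.101) lay lower. Set against the 1000 genes nearest in mean level, the median percentile of the 10 genes was 84.0, against 84.7 among all genes, and 4 lay above the 90th percentile. By that measure Klf4 lay below the median, at the 47.6th percentile, with Ier2 at 56.6 and Jun at 61.5. These percentiles are a description of 6 arrays, without a test. The range between arrays was wider in the dexamethasone group for 3 of the 10 genes, Fosb, Ier2 and Nr4a1, and wider in controls for the other 7.

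**Figure D3:**
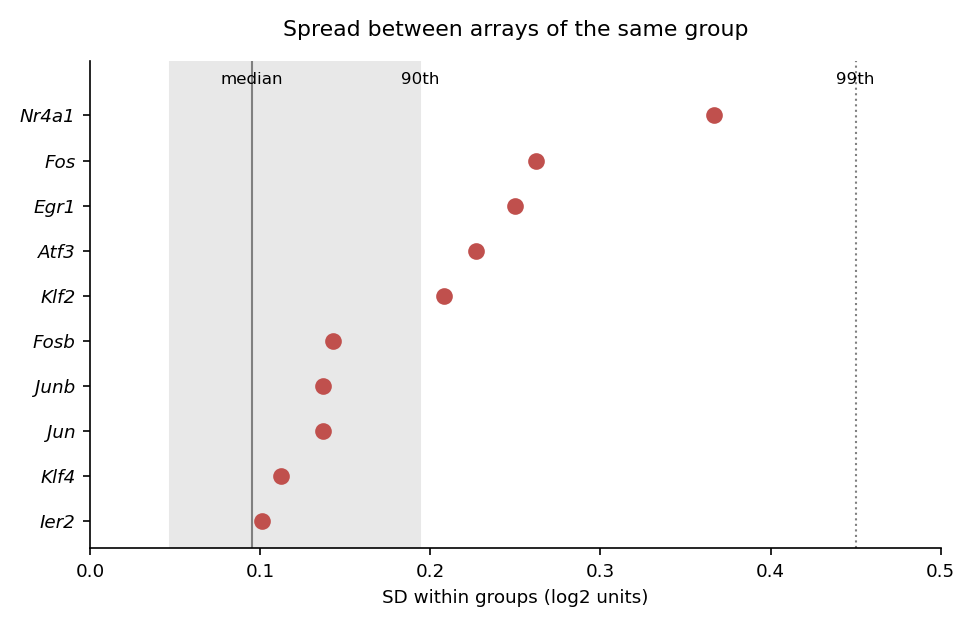
SD within groups in log2 units of each of the 10 genes (points), with the median of all 19919 genes at 0.095 (solid line), the span from their 10th percentile at 0.047 to their 90th at 0.194 (grey) and their 99th percentile at 0.450 (dotted). Nr4a1, Fos, Egr1, Atf3 and Klf2 lie to the right of the grey span.

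The same arrays stood out for most of the 10 genes. Dexamethasone replicate 2 was the highest of its group for 8 of the 10 genes, the exceptions being Jun and Junb, against 25.9% of all genes. Control replicate 2 was the lowest of its group for 8 of the 10 genes, the exceptions being Jun and Egr1, against 37.8% of all genes. Both held at once for 7 of the 10 genes and for 8.42% of all genes. With each gene set relative to its own mean over the 6 arrays, the mean of the 10 genes was -0.05, 0.17 and -0.01 in dexamethasone samples, against 0.04, -0.17 and 0.01 in controls. The difference of the group means of these values, 0.07, was smaller than the SD between arrays of a group, 0.118. Over the 28 other immediate-early genes, none of which is among the 10, dexamethasone replicate 2 was the highest of its group for 14 and control replicate 2 the lowest for 15, with 9 showing both. Among them Dusp1 had 11.05, 11.39 and 11.07 in dexamethasone samples, against 11.29, 10.48 and 10.94 in controls. Ccn1, which encodes a matrix protein induced by serum, had 8.90, 9.36 and 8.94 in dexamethasone samples, against 8.89, 8.40 and 9.0 in controls. For these 2 genes, chosen after their values were seen, the log2 changes were 0.26 and 0.30, with adjusted p = 0.645 and 0.549.

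The mean of the 28 other immediate-early genes had the same ends as that of the 10 genes. It was 0.103 on dexamethasone replicate 2 and -0.144 on control replicate 2. The exocrine pancreas markers also had these ends over a narrower range, with 0.042 on dexamethasone replicate 2 and -0.056 on control replicate 2. Several other lists placed the arrays in another order. Genes of the heat shock response, which also answers to handling of tissue, were highest on control replicate 1, where 9 measured genes averaged 0.298 above their own means, against -0.112 on each of the other controls and between -0.074 and 0.030 in dexamethasone samples. The endothelial markers, relative to their own means, lay between -0.015 and 0.096 in dexamethasone samples, against -0.096 to 0.039 in controls, with dexamethasone replicate 2 highest and control replicate 1 lowest. The squamous markers were high on both arrays numbered 2, where the immediate-early genes stood at opposite ends. How long each stomach was handled is not given in the sources used here, and its part in the scatter was not tested.

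**Figure D4:**
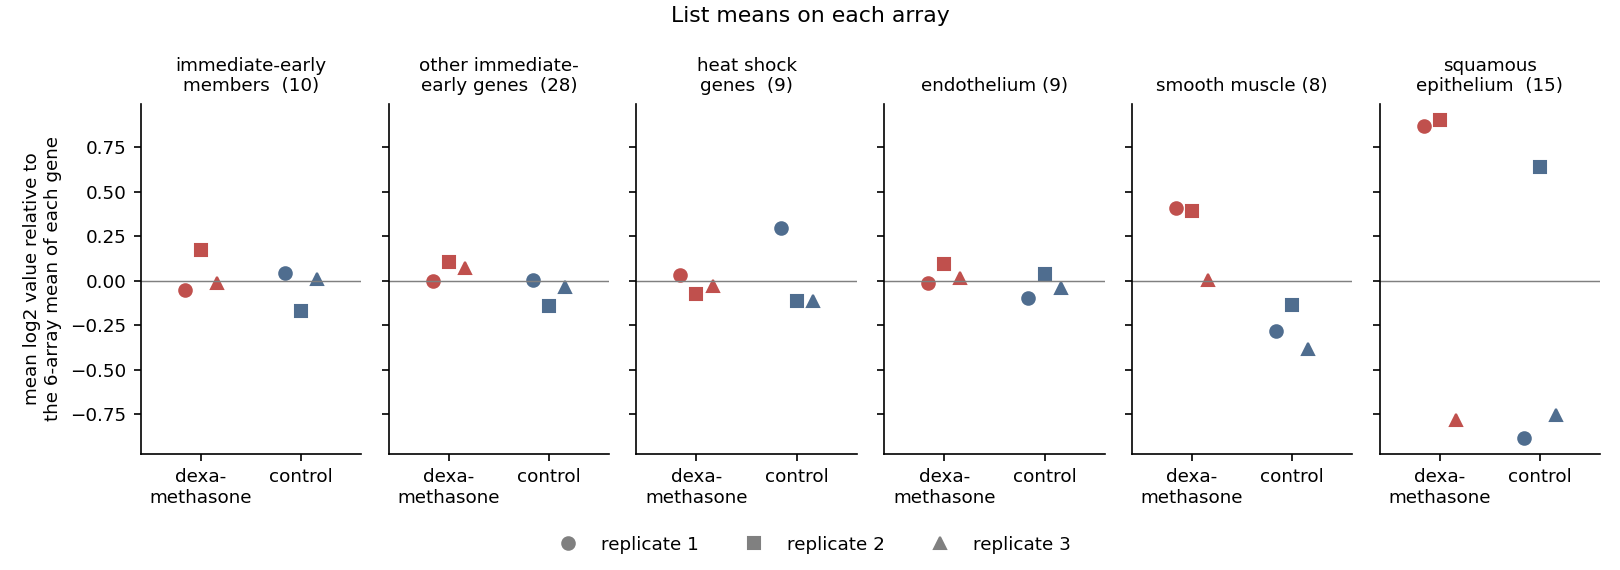
Mean of each list on each array, in log2 units relative to each gene's own mean over the 6 arrays, with dexamethasone in red, control in blue and a marker shape for each replicate number (genes measured in brackets). The 10 immediate-early genes are highest on dexamethasone replicate 2 (0.17) and lowest on control replicate 2 (-0.17), while heat shock genes are highest on control replicate 1 and squamous markers separate 3 arrays from the other 3.

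The genes with the pattern most like the mean of the 10 were found by the root mean square difference of the centred log2 values over the 6 arrays. The 8 closest were Gng5-ps, Fam207a, Fezf2, Rbpj, Olfr983, Hdgfl1, Slc25a25 and Aldoa, at differences from 0.0229 to 0.0332. A flat profile would have stood at 0.1029, and 3347 genes were closer than that. Among the 10 genes themselves only Ier2, at 0.075, was closer than a flat profile. Nr4a1 was the farthest, at 0.292. Aldoa, an enzyme of glycolysis, had 12.44, 12.60 and 12.49 in dexamethasone samples, against 12.45, 12.30 and 12.46 in controls. A peak at dexamethasone replicate 2 and a trough at control replicate 2 follow from this choice, since the mean of the 10 has them. For the 8 genes the adjusted p for the treatment lay between 0.640 and 0.894.

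Of the 28 other immediate-early and delayed early genes, 2 rose, 0 fell and 26 did not pass, where 0.798% of all genes passed and were higher and 1.04% passed and were lower. The median log2 change was 0.083. By an unadjusted p below 0.05, 5 genes were higher and 1 lower, against 13.1% of all genes in either direction. The groups did not overlap in 7 of the 28, against 18.3% of all genes. Ccn2, the connective tissue growth factor, had 9.77, 9.84 and 9.64 in dexamethasone samples, against 9.22, 8.76 and 8.89 in controls. Every dexamethasone array lay above every control, and the rise was 1.73-fold (log2 change 0.79, SE 0.12, adjusted p = 0.0217). Maff, a small MAF protein that can pair with FOS, rose 1.25-fold, with 7.70, 7.71 and 7.65 in dexamethasone samples, against 7.37, 7.30 and 7.41 in controls (log2 change 0.33, SE 0.059, adjusted p = 0.0412). Both calls were fragile. For Maff the call ended whichever array was left out (adjusted p from 0.0525 to 0.205) and with the replicate block (0.132). Ccn2 lost its call without dexamethasone replicates 1 or 2 (0.106 and 0.121) or control replicates 2 or 3 (0.0560 and 0.136). Under the same omissions of 1 array, the log2 change stayed between 0.297 and 0.351 for Maff and between 0.696 and 0.925 for Ccn2. Smooth muscle markers, 8 of 8 measured and 2 of them past the threshold and higher, had list means of 11.79, 11.77 and 11.38 in dexamethasone samples, against 11.10, 11.25 and 11.00 in controls, so the groups did not overlap for them either. With that mean as a covariate, Ccn2 stood at 0.71 (adjusted p = 0.399) and Maff at 0.32 (adjusted p = 0.468). Without both arrays numbered 2, Ccn2 stood at 0.65 (adjusted p = 0.255) and Maff at 0.28 (adjusted p = 0.476). Klf10, a factor induced early by TGF-beta, differed by 0.32 on the log2 scale (SE 0.11, adjusted p = 0.243).

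Upstream of these genes, 21 of 24 listed kinases and transcription factors were measured, and 0 passed with limma (median -0.013). By an unadjusted p below 0.05, 1 was higher and 2 were lower, against 13.1% of all genes in either direction. Srf, the serum response factor gene, had 8.87, 8.79 and 8.68 in dexamethasone samples, against 8.57, 8.33 and 8.44 in controls. The groups did not overlap, and the log2 change was 0.33 (SE 0.083, adjusted p = 0.123). Mrtfa, which encodes an actin-sensing partner of SRF, stood at a log2 change of -0.24 (SE 0.068, adjusted p = 0.173). Map2k5, the kinase of the ERK5 route known to induce Klf2 and Klf4, had one of -0.26 (SE 0.092, adjusted p = 0.276). Both had dexamethasone values below all controls.

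Of 15 genes whose products shut the response off, 0 passed (median 0.009), and 0 were higher and 2 lower by an unadjusted p below 0.05. For this list and those that follow, 13.1% of all genes reached that p in either direction. The related lists share genes, with 10 of their 119 genes in more than 1 list, so their counts are not independent. Zfp36 was counted as lower both here and among the other immediate-early genes, and Klf10 as higher both there and among the other KLF genes. The phosphatase gene Dusp5 had a log2 change of -0.25 (adjusted p = 0.258), Zfp36, whose protein destabilises early mRNAs, -0.24 (adjusted p = 0.306), and the EGR corepressor Nab2 0.13 (adjusted p = 0.459). Of 17 other AP-1 and ATF family genes, 0 passed and 0 had an unadjusted p under 0.05 in either direction (limma, median 0.013). The smallest p values there were those of Fosl2, Cebpb and Ddit3, with log2 changes of -0.17, 0.21 and -0.21. Of 15 other KLF genes, 0 passed (median 0.005), and 1 was higher by an unadjusted p below 0.05. Besides Klf10, the lowest p values belonged to Klf5, a factor of proliferating epithelium, at -0.14 and Klf9, a known glucocorticoid target, at 0.32 (adjusted p = 0.479 and 0.555). Of 9 heat shock genes out of 12 listed, 0 passed (median -0.021), and 0 were higher and 2 lower by an unadjusted p below 0.05, with the co-chaperone gene Dnaja1 at -0.38 (adjusted p = 0.0615), Hsf2 at -0.25 and Hsph1 at 0.23.

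Genes known as targets of these factors fell into 2 lists with 1 call each, where 1.84% of all genes passed. Of 17 AP-1 and EGR targets measured out of 18, 0 rose, 1 fell and 16 did not pass, with a median log2 change of -0.002. By an unadjusted p below 0.05, 2 were higher and 3 lower, against 13.1% of all genes in either direction. The groups did not overlap in 7, against 18.3% of all genes. Plau, the urokinase plasminogen activator and a classical AP-1 target, had 9.02, 8.94 and 9.10 in dexamethasone samples, against 9.38, 9.38 and 9.42 in controls. It fell 1.29-fold (log2 change -0.37, SE 0.063, adjusted p = 0.0347). The collagenase gene Mmp13 and Plaur, the receptor of urokinase, stood at -0.36 and -0.27 on the log2 scale (adjusted p = 0.159 and 0.184), with dexamethasone values below all controls in both. Other targets stood on the opposite side, the highest being Timp1, an inhibitor of collagenases chosen here after its value was seen, at 0.37. The call of Plau ended without dexamethasone replicates 1 or 2 (adjusted p = 0.131 and 0.168), without control replicates 1, 2 or 3 (0.0545, 0.0917 and 0.180), with the replicate block (0.0879) and with the smooth muscle covariate (0.618). Its log2 change was -0.24 with that covariate and -0.37 with the block, as without it. With 1 array left out it lay between -0.411 and -0.331. Leaving out both arrays numbered 2 gave -0.339 (adjusted p = 0.370). Calls over all genes changed with these omissions too, down to 40 higher and 48 lower without dexamethasone replicate 2.

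Of 7 endothelial genes known to be controlled by KLF2 and KLF4, 0 rose, 1 fell and 6 did not pass (median 0.091). By an unadjusted p below 0.05, 1 was higher and 1 lower, against 13.1% of all genes in either direction. Edn1, which encodes the vasoconstrictor endothelin 1 and is held down by KLF2 in cultured endothelium, had 8.72, 8.74 and 8.75 in dexamethasone samples, against 9.16, 9.33 and 9.19 in controls. It fell 1.40-fold (log2 change -0.49, SE 0.065, adjusted p = 0.0141), with both groups tight. Plat, the tissue plasminogen activator, and Vcam1, an adhesion molecule, stood at 0.31 and -0.14 on the log2 scale (adjusted p = 0.213 and 0.510). Edn1 lost its call without dexamethasone replicates 1 or 2 (adjusted p = 0.0719 and 0.0871), without control replicate 3 (0.0791) and with the smooth muscle covariate (0.236). Its log2 change under these 4 settings was -0.483, -0.490, -0.505 and -0.539, close to or past that over all 6 arrays. The call also ended without both arrays numbered 2, where the log2 change was smaller, at -0.44 (adjusted p = 0.215).

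**Figure D5:**
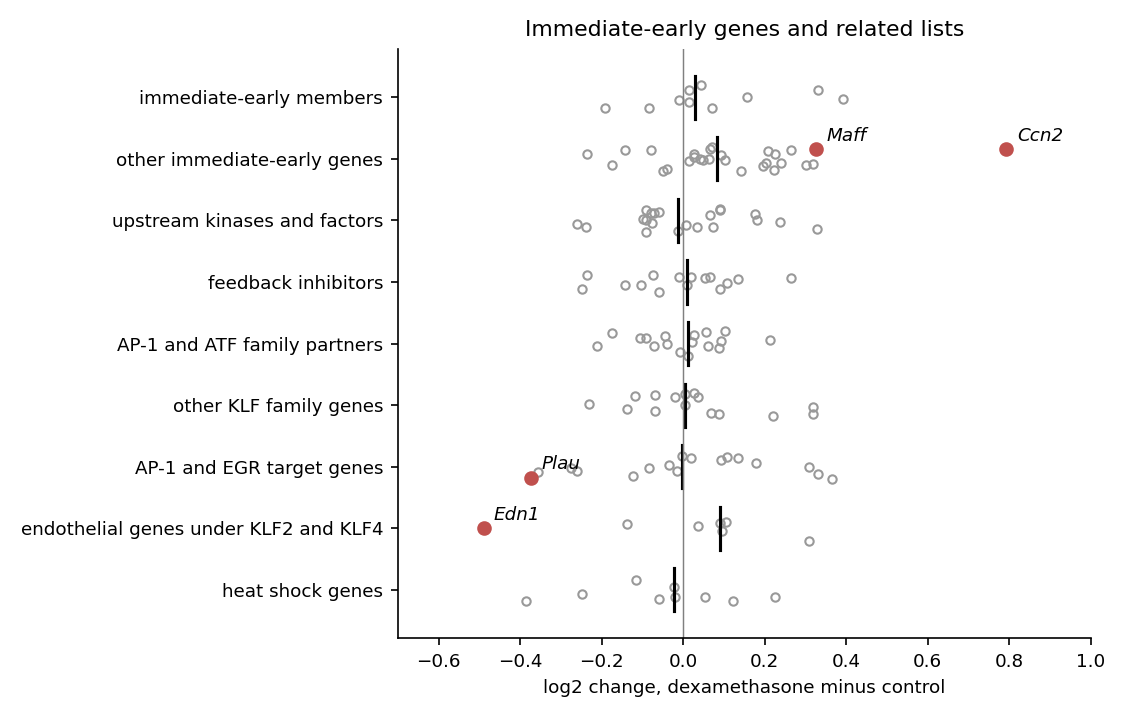
Log2 change, dexamethasone minus control, of each gene in the immediate-early set and the 8 related lists, with a black line at each list's median and filled red points for genes with an adjusted p under 0.05. Ccn2 (0.79) and Maff (0.33) lie to the right, Plau (-0.37) and Edn1 (-0.49) to the left, and no point of the 10 immediate-early genes is filled.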

How the data were processed

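The deposited table holds log2 expression values made by the authors with RMA, per the submitters' processing notes, which also name R 2.9 and limma with no role. Neither a filter nor the version of the chip definition is named there. RMA normally includes quantile normalization, so a change is relative to the bulk of genes, and it compresses differences of dim probe sets. Of 20985 probe sets, 19921 had 1 symbol in the platform annotation, 0 had several and 1064 were not listed. For 2 symbols on 2 probe sets, the one with the higher mean was kept, leaving 19919 genes.

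Every gene was fitted by lmFit and eBayes of limma 3.58.1 under R 4.3.3 (default prior, 3 dexamethasone against 3 control arrays, two-sided, Benjamini-Hochberg over 19919 genes, threshold 0.05). Intervals are 95% and not adjusted. The scripts were tested on simulated data. An exact permutation test of 3 against 3 cannot go below p = 0.1 and was not used. The precision is limited by the number of arrays. Tables and figures were made with Python 3.11.15.

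The 10 genes and the related and marker lists were chosen with earlier results of these data known. Genes named were the 10, in each related list those past the threshold and the 3 of smallest p, and the 8 of most similar pattern. Others are said to have been chosen after their values were seen. Promoter windows came from RefSeq, build GRCm38.p6. The alternatives were the replicate block, median centring, quantile normalization, the dimmest 40% of genes left out, a trend and robust prior, array weights, all probe sets, the squamous or smooth muscle mean as a covariate and each array left out. Leaving out both arrays numbered 2 was added after seeing the data.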

Additional observations from a re-analysis of the deposited data

How the results depend on the processing

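Among the 10 immediate-early genes, 0 were higher and 0 lower past the threshold under 15 of the 16 alternatives. With array weights 1, Fosb, was higher (log2 change 0.416), where 773 of all 19919 genes were higher and 1003 lower. The median log2 change of the 10 genes lay between -0.042 and 0.106 with 1 array left out. The sign of small changes, none of them called, moved. With arrays centred on their median, Fos and Junb each stood at -0.003. With array weights, Junb stood at -0.083 and Ier2 at 0.038. With the squamous covariate Ier2 stood at 0.022. With the smooth muscle covariate Ier2 stood at 0.092, Nr4a1 at -0.304 and Atf3 at 0.016. With both arrays numbered 2 left out, Fos stood at -0.226, Junb at -0.040 and Klf2 at -0.077. With 1 array left out, Fos ranged from -0.158 to 0.169, Junb from -0.083 to 0.084, Egr1 from -0.093 to 0.170, Ier2 from -0.059 to 0.063, Atf3 from -0.211 to 0.047 and Klf2 from -0.047 to 0.206, while Fosb, Jun and Nr4a1 stayed positive and Klf4 negative.

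The other immediate-early genes, with 2 higher, had 1 higher with the replicate block, median centring, quantile normalization, the squamous covariate or the dimmest 40% left out, 0 with the smooth muscle covariate or without both arrays numbered 2, and 0 to 1 with 1 array left out. With the dimmest 40% left out, Maff was no longer tested. The AP-1 and EGR targets, with 1 lower, had 0 lower with the replicate block, the smooth muscle covariate or without both arrays numbered 2, 3 lower with array weights, 0 to 2 lower with 1 array left out, and 1 higher with the squamous covariate. The endothelial genes, with 1 lower, had 0 lower with the smooth muscle covariate or without both arrays numbered 2 and 0 to 1 with 1 array left out, and 1 higher with array weights. Array weights also gave 1 lower among the other immediate-early genes, 1 higher and 2 lower upstream genes, 1 lower feedback inhibitor, 1 lower AP-1 or ATF partner and 1 lower heat shock gene. With 1 array left out, upstream genes had 0 to 1 lower and heat shock genes 0 to 1 higher. The causes were not tested.

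Deviations from the group means correlated at -0.282, 0.351 and 0.231 between arrays of the same replicate number. Dexamethasone replicate 1 correlated best with control replicate 2 (0.379). Deviations within a group depend on each other, so these correlations cannot settle whether samples of the same number were paired. Over all genes, 104 were higher and 116 lower with the replicate block, against 159 and 208 without it. These counts were 17 and 21 with the smooth muscle covariate and 773 and 1003 with array weights. Without dexamethasone replicates 1, 2 and 3 in turn, they were 57 and 61, 40 and 48, and 284 and 259. Without control replicates 1, 2 and 3 in turn, they were 168 and 297, 81 and 97, and 39 and 53. Without both arrays numbered 2 they were 15 and 21.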
